A study of Homo sapiens with 28 samples.

Results

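Chromatin accessibility was followed around 7 genes that encode transcription factors of the epithelial-mesenchymal transition (EMT), ZEB1, ZEB2, SNAI1, SNAI2, TWIST1, TWIST2 and PRRX1, in ovarian cancer cells adapted or exposed to olaparib, an inhibitor of the DNA repair enzyme PARP. All consensus peaks that lie within 50 kb of a RefSeq gene body of the 7 genes (GRCh38) were taken, which gave 48 of 105048 peaks. ZEB2 had 15 of them, SNAI1 12, SNAI2 and TWIST2 7 each, TWIST1 4, ZEB1 2 and PRRX1 1. Peaks are named by gene and numbered along the chromosome, so that SNAI1_1 has the lowest coordinate at SNAI1, and "below" and "above" a gene refer to lower and higher coordinates. Of the 48 peaks, 15 overlapped a gene body and 33 lay outside it. For 43 peaks a gene of the 7 was the nearest protein-coding gene, and the 5 others were ZEB2_1, ZEB2_2, ZEB2_3, SNAI1_1 and SNAI1_12.

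The cells were Kuramochi, an established BRCA2-mutant ovarian cancer line labelled epithelial, and accessibility was measured by Omni-ATAC-seq, in which a transposase cuts open chromatin. The 7 adapted populations, resistant cells named for their olaparib dose in uM (T5, T10, T20, T40, T80, T160, T320), were exposed to that dose and sorted as CD24 low and CD44 high. P10 and P320, which the labels call persister cells, had an acute exposure of 9 days to 10 or 320 uM olaparib. C was the untreated population, sorted on CD24 and CD44, while a sort is not mentioned for the persister cells, so that the sort and the kind of exposure cannot be told apart where P10 or P320 is compared with a T population or with C. All groups share the BRCA2-mutant background of 1 cell line, and each had 2 libraries. The labels do not say whether the 2 were separate cultures, so the p-values measure only the spread between these libraries. The labels list 8 further samples of T320 cells kept with or without drug, which were not analysed here.

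EMT is the change by which epithelial cells lose cell-cell junctions and polarity and take on mesenchymal traits such as motility. The factors that drive it bind short DNA motifs and repress epithelial genes, among them CDH1, which encodes E-cadherin. ZEB1, ZEB2, SNAI1 and SNAI2 are zinc-finger proteins that bind E-boxes of the CAGGTG type, TWIST1 and TWIST2 are basic helix-loop-helix proteins that bind E-boxes, and PRRX1 is a paired-related homeobox protein. ZEB1 and ZEB2 transcripts are targets of the miR-200 family, and ZEB factors in turn repress the miR-200 genes. Accessibility near a gene is not a measure of its transcript, and no RNA was analysed here.

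The bases before the annotated starts of ZEB1, TWIST2 and PRRX1 are shown because the start peaks of these genes, described below, overlap them in whole or, for PRRX1, in part. RefSeq promoters (GRCh38.p14) matched 4 of the 7 symbols, ZEB2 being the other. Each run holds the 250 bases before a start, read 5′ to 3′ on the plus strand, and capitals mark CAGGTG and CCAAT on either strand. They cover chr10:31318167-31318416 for the first ZEB1 start, chr2:238847835-238848084 for TWIST2 and chr1:170663881-170664130 for PRRX1. The PRRX1 start peak begins at 170664080 and covers only the end of its run, and the CCAAT marked there lie outside the peak.
ZEB1: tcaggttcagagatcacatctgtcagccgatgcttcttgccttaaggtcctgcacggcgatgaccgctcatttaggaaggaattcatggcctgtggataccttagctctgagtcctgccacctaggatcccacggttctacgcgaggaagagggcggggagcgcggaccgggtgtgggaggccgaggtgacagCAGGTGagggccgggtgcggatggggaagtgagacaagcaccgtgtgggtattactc
TWIST2: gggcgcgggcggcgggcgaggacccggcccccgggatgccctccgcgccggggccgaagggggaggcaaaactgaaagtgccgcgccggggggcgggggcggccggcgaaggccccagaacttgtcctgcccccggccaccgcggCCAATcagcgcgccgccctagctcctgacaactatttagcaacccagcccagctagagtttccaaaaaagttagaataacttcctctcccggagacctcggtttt
PRRX1: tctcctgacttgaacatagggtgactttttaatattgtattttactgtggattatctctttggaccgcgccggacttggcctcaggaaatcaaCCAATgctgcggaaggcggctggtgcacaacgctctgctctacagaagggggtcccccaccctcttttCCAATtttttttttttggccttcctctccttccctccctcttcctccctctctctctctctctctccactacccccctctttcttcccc
The ZEB1 run held 1 CAGGTG, among 2 E-boxes of the general form CANNTG, and 1 GC box (GGGCGG), the TWIST2 run 1 CCAAT and 4 GC boxes, and the PRRX1 run 2 CCAAT and 0 GC boxes. Of all 35116 RefSeq promoter windows of this length, 17.5% held CAGGTG, 32.0% CCAAT and 42.6% GGGCGG, with both strands searched. Each CAGGTG is also a CANNTG, which 61.8% of the windows held. The AP-1 motif TGANTCA and the TEAD motif GGAATG, held by 6.57% and 11.9% of all windows, had 0 matches in these 3 runs.

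Library totals lay between 9627970 and 29699950 counts, and replicate 1 held 0.46 to 0.7 of the counts of replicate 2 in the T populations and C, against 0.99 to 1.06 in P10 and P320. Values are given as CPM, counts scaled to the TMM-adjusted library total. Gained and lost peaks had an adjusted p under 0.05 in edgeR's quasi-likelihood test over all 105048 peaks, together with a log2 change of 1 or more in size; ± after a log2 change is the standard error of that fit, with 2 libraries per group. All 6 epithelial markers looked for (EPCAM, CDH1, KRT8, KRT18, KRT19, ESRP1) had a peak at a gene end, with a summed level of 67.7 to 70.1 CPM in T320, 84.9 to 86.4 CPM in P320 and 54.1 to 59.6 CPM in C. The members went different ways in T320 against C: KRT18 was gained (1.36 ± 0.23, edgeR adjusted p = 1.5e-04) and ESRP1 lost (-1.11 ± 0.26, edgeR adjusted p = 0.0021), KRT8 stood at 0.59, EPCAM at -0.80, KRT19 at -0.74 and CDH1 at -0.31, none of these 4 called, and the median was -0.52. Of the markers of other cell types, 3 of 5 fibroblast, 1 of 4 leukocyte and 2 of 4 endothelial genes had a peak, and DCN, THY1, PTPRC, CD3E, PECAM1 and CDH5 were among those with none. Summed fibroblast markers lay between 32.5 and 33.0 CPM in T320, 22.1 and 22.7 CPM in P320 and 24.0 and 25.9 CPM in C. The leukocyte list, which is the CD14 peak alone, lay between 9.19 and 12.2 CPM in T320, 13.6 and 13.8 CPM in P320 and 13.4 and 13.5 CPM in C, and the endothelial list between 13.5 and 15.4 CPM in T320, 16.6 and 17.3 CPM in P320 and 17.8 and 18.1 CPM in C. The part of such cells in the results was not tested. The share of counts in gene-end peaks was 29.2% and 31.5% in T320, 38.2% and 37.5% in P320 and 27.8% and 31.8% in C. As the samples are bulk, more cells with an open site and a site more open in each cell cannot be told apart.

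Over the 48 peaks, calls against C were few in the low-dose populations and most frequent in T320. T320 had 11 gained and 4 lost peaks, which is 22.9% and 8.33% of the 48, where 15% and 15.5% of all peaks were gained and lost. In T5, 2 peaks were gained and 0 lost, against 4.73% and 4.46% of all peaks. T10 had 1 gained and 3 lost (8.51% and 9.22% of all peaks), and T20 had 2 and 5 (11.2% and 13.3%). T40 had 4 gained and 2 lost (11.8% and 13.3% of all peaks), T80 had 6 and 2 (12.3% and 13.6%), and T160 had 6 and 4 (11% and 12.5%). Gains were thus 12.5% of the 48 in T80 and in T160, close to their backgrounds, and stood farther above the background in T320, while the share of losses was below the background in each of the 7 comparisons, in the fit without a replicate block. The T320 gains were not spread over the 7 genes: 6 were at SNAI1, 4 at ZEB2 and 1 at TWIST1. Peaks flanking SNAI1 had a median log2 change of 0.53 there. Gained and lost peaks together were 31.2% of the 48 in T320, near the 30.5% of all peaks. For the 0 losses in T5, 4 peaks were lower at an unadjusted p under 0.05 in edgeR, and DESeq2 called 0. The median log2 change of the 48 was 0.14 in T320, against -0.01 over all peaks. Leaving out 1 library moved several counts by over 1.5 times. Without C replicate 2 the gains were 2 in T40, 1 in T80 and 2 in T160, and without replicate 2 of the population itself they were 1 in T20 and 3 in T80. The losses were 3 in T20, 2 in T160 and 2 in T320 without C replicate 1, and 2 in T160 and 2 in T320 without C replicate 2. They were 0 in T10, 2 in T20, 1 in T80, 0 in T160 and 2 in T320 without replicate 2 of the population, and 2 in T20 and 2 in T160 without its replicate 1. The 11 gains of T320 stayed between 8 and 12. With the replicate number as a block, the losses were 2 in T5, 5 in T10 and 6 in T80. The added losses were SNAI1_6 (-1.07) and TWIST1_2 (-1.46) in T5, SNAI2_3 (-1.06) and TWIST2_3 (-1.63) in T10, and ZEB2_1 (-1.01), ZEB2_8 (-1.04), SNAI2_3 (-1.0) and TWIST2_3 (-1.31) in T80.

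After 9 days of exposure, P10 had 6 gained and 4 lost peaks of the 48 against C (9.32% and 12.8% of all peaks), and P320 had 1 gained and 1 lost (3.94% and 7.91%). Set directly against each other at the same dose, T320 had 16 peaks higher and 3 lower than P320, which is 33.3% and 6.25% of the 48, where 19.7% and 14.5% of all peaks were. Of the 16, 8 were at SNAI1. T10 had 4 higher and 9 lower than P10, where 17.8% and 15.1% of all peaks were. These counts depend on the scaling: with TMM from gene-end peaks alone, the log2 changes of all peaks shifted by -0.48 in P320 against C, -0.15 in P10 against C and 0.45 in T320 against P320, and by -0.12 to -0.17 in T10 to T160 against C. On that scale the 48 peaks held 0 gained and 8 lost in P320 against C and 19 higher and 0 lower in T320 against P320, and gains made up 3.52% of all called peaks in P320 against C, in place of 33.3%, and 83.3% in T320 against P320, in place of 57.6%. The split moved less in T320 against C, where gains were 48.4% of called peaks, in place of 49.1%, and 10 of the 48 were gained and 4 lost. Of single libraries, leaving out C replicate 2 or P10 replicate 2 gave 3 gains in P10, leaving out P320 replicate 1 gave 0 gains in P320 and leaving out P320 replicate 2 or C replicate 2 gave 2, and the P320 loss was not kept without any 1 of the 4. T320 had 5 peaks lower than P320 without T320 replicate 1, and T10 had 2 higher than P10 without T10 replicate 2 or P10 replicate 2.

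**Figure D1:**
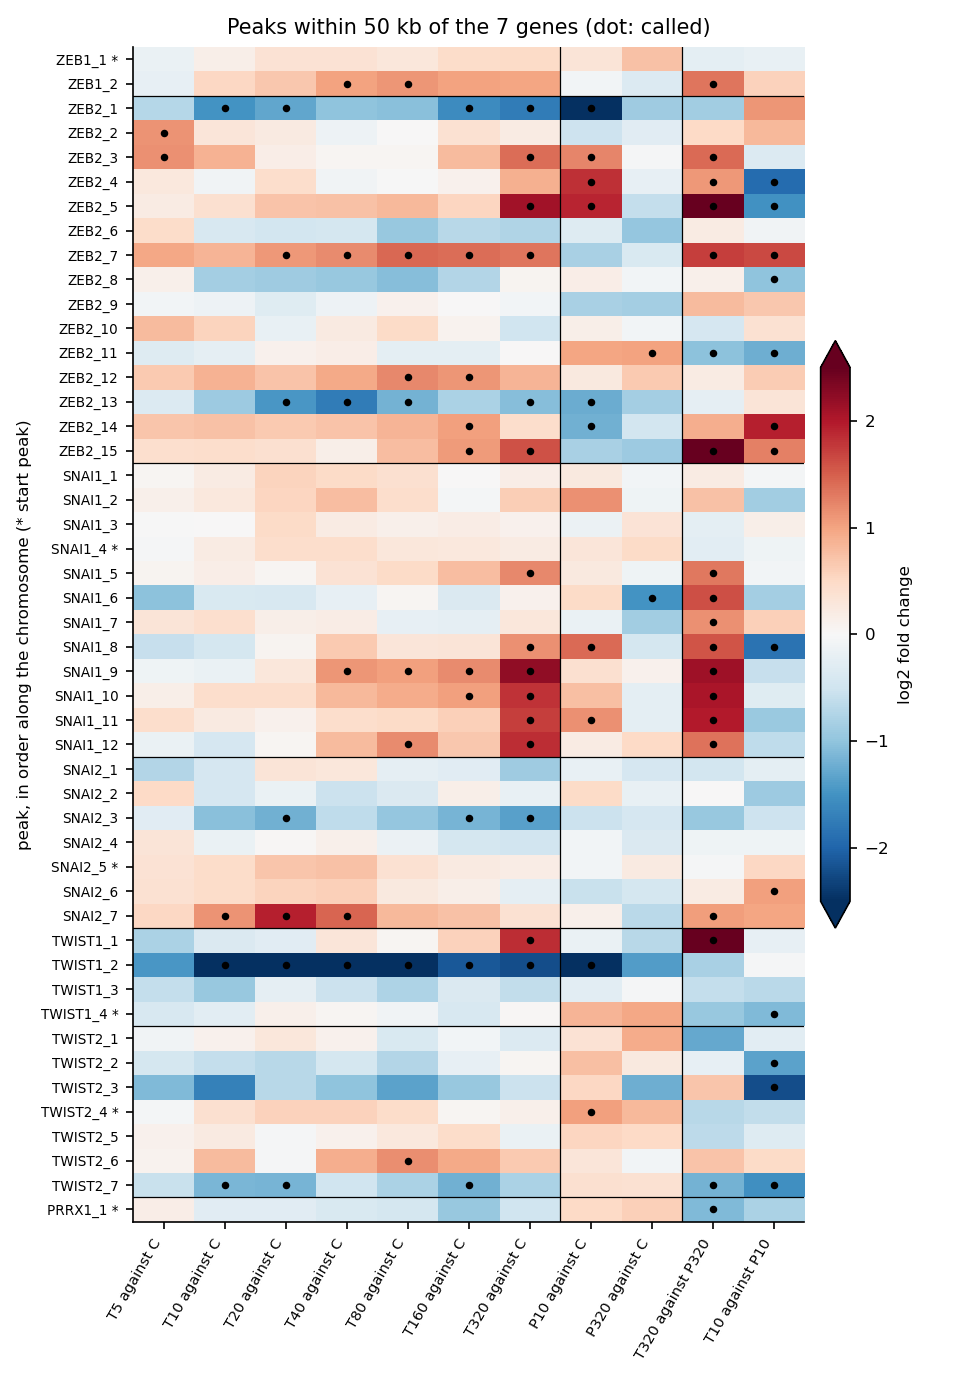
Log2 fold changes of the 48 peaks (rows, in chromosome order within each gene, start peaks starred) in 11 comparisons (columns); red is higher and blue lower in the first-named group, and a dot marks a called peak. The dots gather in 6 of the 8 SNAI1 peaks above the gene in T320 against C, along ZEB2_7 and along TWIST1_2.

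No start peak was called between an adapted population and C, and the 1 call between P10 or P320 and C was a gain of the TWIST2 start peak in P10. A start peak was found for 6 genes: ZEB1_1, SNAI1_4, SNAI2_5, TWIST1_4, TWIST2_4 and PRRX1_1, of which those of SNAI1, SNAI2 and TWIST1 are the strongest peak within 1 kb of a gene end, as no start was annotated for them in the tables used here. No peak overlapped the ZEB2 start; the nearest were ZEB2_11 inside the gene and ZEB2_12 above it. In the 7 comparisons of an adapted population with C, 0 of the 6 start peaks were called by edgeR and 0 by DESeq2; at an unadjusted p under 0.05 in edgeR, 3 were higher in T20, 3 in T40, 1 in T160 and 1 in T320, and 1 was lower in T160. In P320, 5 of 6 had an unadjusted p under 0.05, all higher than in C, and 0 were called by either tool. Their median log2 change was 0.67, beside 0.422 over the gene-end peaks of 13621 genes. Of those 13621, between 2% (T5) and 10.4% (T320) were gained or lost against C in the 7 adapted populations. In P10 9.29% of them were gained, and in P320 15.1%. With only 6 start peaks, counts of 0 or 1 cannot be told apart from these shares.

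The SNAI2 start peak (chr8:48920290-48922209) had 27.2 and 40.9 CPM in C and 45.4 and 64.6 CPM in T20. It had 46.6 and 66.5 CPM in T40 and 33.8 and 43.7 CPM in T320, and 38.5 and 40.9 CPM in P320. Both T40 and both T20 libraries lay above both C libraries, while those of T320 overlapped them. The log2 change was 0.73 ± 0.24, edgeR adjusted p = 0.024, in T40 and 0.69 ± 0.24, edgeR adjusted p = 0.033, in T20, under the minimum of 1, and 0.19 ± 0.24, edgeR adjusted p = 0.56, in T320. The SNAI1 start peak (chr20:49982074-49984350) had 30.1 and 33.2 CPM in T320, 37.2 and 38.9 CPM in P320 and 26.0 and 28.7 CPM in C. Both treated groups lay above both C libraries, by 0.21 ± 0.15, edgeR adjusted p = 0.29, in T320 and 0.48 ± 0.15, edgeR adjusted p = 0.036, in P320, neither of them called.

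ZEB1_1 (chr10:31317960-31321135), which also overlaps the antisense gene ZEB1-AS1, had 20.7 and 25.3 CPM in T320, 28.1 and 26.9 CPM in P320 and 13.7 and 19.1 CPM in C. It was higher than in C without overlap in both groups, by 0.48 ± 0.21, edgeR adjusted p = 0.074, in T320 and 0.73 ± 0.21, edgeR adjusted p = 0.019, in P320, neither of them called. ATAC-seq has no strand, so reads at ZEB1 and ZEB1-AS1 cannot be told apart. TWIST1_4 (chr7:19116084-19118615) had 13.2 and 17.4 CPM in T320, 27.8 and 26.4 CPM in P10, 30.1 and 29.0 CPM in P320 and 12.6 and 17.6 CPM in C. T320 overlapped C (0.02 ± 0.22), while both 9-day groups lay above it, by 0.84 ± 0.21, edgeR adjusted p = 0.006, in P10 and 0.96 ± 0.21, edgeR adjusted p = 0.0041, in P320. T10 was lower than P10 there by a called -1.11 ± 0.21, edgeR adjusted p = 4.4e-04. This call was not kept without T10 replicate 1 (-0.86).

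TWIST2_4 (chr2:238847358-238849552) was the 1 start peak called against C. It had 17.1 and 17.6 CPM in P10, 14.6 and 15.7 CPM in P320 and 9.44 and 7.78 CPM in C. The 9-day libraries did not overlap C, with a gain of 1.02 ± 0.22, edgeR adjusted p = 0.0023, in P10 and an uncalled 0.82 ± 0.22, edgeR adjusted p = 0.015, in P320. The P10 call was lost with TMM from gene-end peaks alone (0.85), with the window offset described with the locus sums (0.86), without C replicate 2 (0.88) and without P10 replicate 2 (1.00). PRRX1_1 (chr1:170664080-170665444), the 1 peak of PRRX1, had 3.73 and 3.55 CPM in T160, 5.48 and 4.48 CPM in T320, 10.5 and 10.6 CPM in P320 and 8.04 and 5.99 CPM in C. It was lower in T320 than in P320 by a called -1.10 ± 0.27, edgeR adjusted p = 0.0024, which was -0.64 and not called with TMM from gene-end peaks alone. Against C it stood at -0.94 ± 0.28, edgeR adjusted p = 0.015, in T160 and 0.60 ± 0.26, edgeR adjusted p = 0.12, in P320, neither of them called. The 254 flanking peaks of PRRX1, defined with the locus sums, had a median log2 change of -0.89 in T160 and -0.25 in P320. The PRRX1_1 difference of T320 and P320 was not called with the window offset (-0.88) or without T320 replicate 2 (-0.95).

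**Figure D2:**
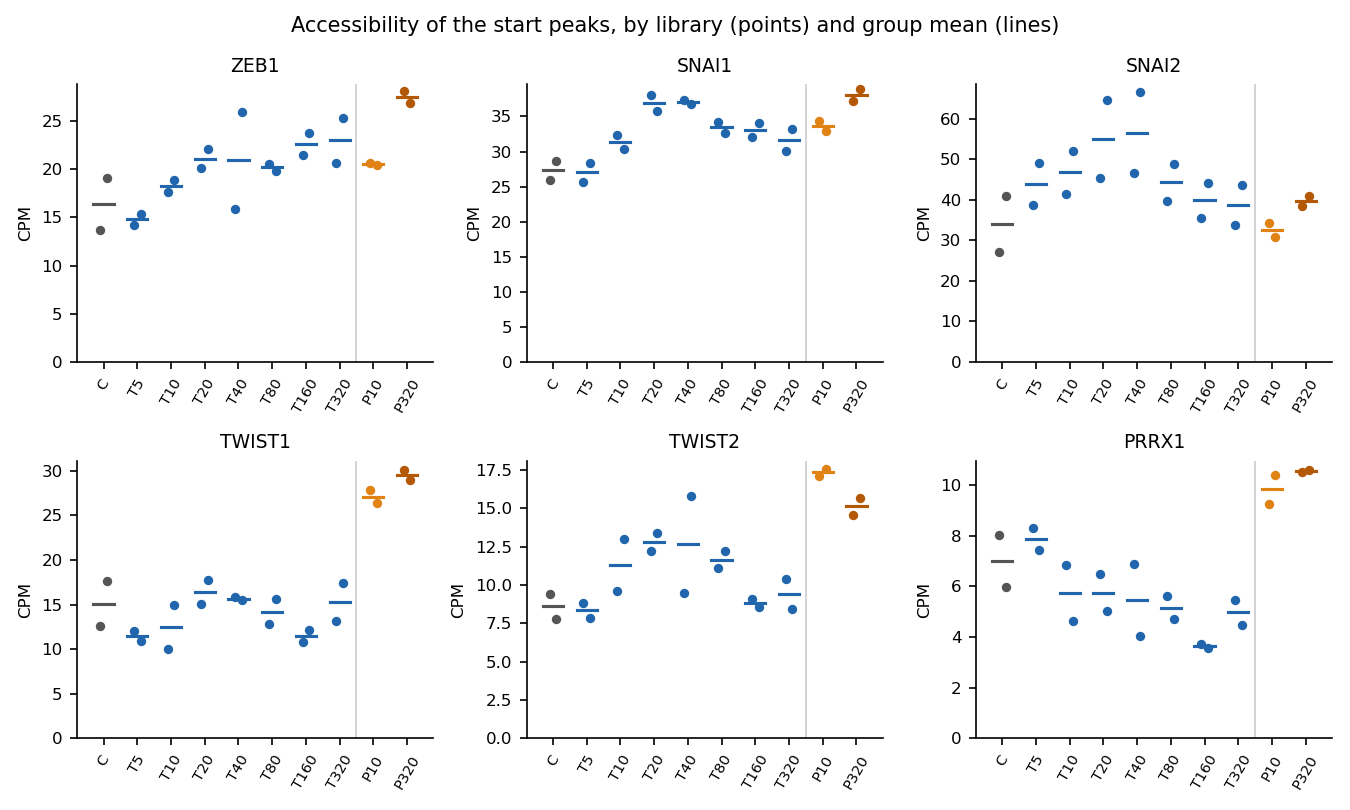
CPM of the 6 start peaks in each of the 20 libraries (points) with the mean of the 2 libraries of each group (lines), from C over T5 to T320 and then P10 and P320. The libraries of P10 and P320 lie above those of C and T320 for TWIST1, TWIST2 and PRRX1, and the SNAI2 means are highest in T20 and T40.

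At SNAI1, whose product represses CDH1, the gains in T320 lay above the gene. Of 8 peaks above the gene, 6 were gained in T320: SNAI1_5, 0.1 kb above the gene, and SNAI1_8 to SNAI1_12, 30.5 to 45.7 kb above it. SNAI1_10 (chr20:50029644-50030989), which overlaps the RefSeq gene SCREEM1, had 22.6 and 31.3 CPM in T320, 6.78 and 6.32 CPM in P320 and 9.77 and 5.99 CPM in C. Both T320 libraries were above all others, by 1.80 ± 0.24, edgeR adjusted p = 1.2e-05, against C and 2.05 ± 0.23, edgeR adjusted p = 1.8e-06, against P320. At T160 the levels were 17.0 and 14.4 CPM in T160, a gain of 1.02 ± 0.24, edgeR adjusted p = 0.003. The T160 gain was not called without C replicate 2 (0.68), without T160 replicate 1 (0.89), with the window offset (0.78) or with TMM from gene-end peaks alone (0.87).

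The neighbours of SNAI1_10 behaved alike in T320. SNAI1_9 (chr20:50027423-50028083) had 12.6 and 12.9 CPM in T320, 2.51 and 3.38 CPM in P320 and 3.78 and 1.89 CPM in C. The change was 2.21 ± 0.34, edgeR adjusted p = 5.4e-05, against C, and SNAI1_9 was also gained in T40 (1.11), T80 (1.02) and T160 (1.19). These 3 calls were lost with the window offset (0.68, 0.66 and 0.95). SNAI1_11 had 9.76 and 10.8 CPM in T320, 5.65 and 8.06 CPM in P10, 2.51 and 2.68 CPM in P320 and 3.61 and 2.64 CPM in C. It was gained in T320 (1.73 ± 0.28, edgeR adjusted p = 7.8e-05) and in P10 (1.15 ± 0.28, edgeR adjusted p = 0.0041). SNAI1_12, whose nearest coding gene is PEDS1-UBE2V1, had 19.3 and 14.4 CPM in T320, 6.95 and 6.20 CPM in P320 and 6.4 and 3.21 CPM in C, a gain of 1.84 ± 0.31, edgeR adjusted p = 1.4e-04. For SNAI1_9 to SNAI1_12 the T320 and C libraries did not overlap, and the call in T320 against C held in each of the 12 alternatives run for it, with log2 changes between 1.31 and 2.75. Without C replicate 2 the SNAI1_9 gains in T40, T80 and T160 (0.65, 0.56 and 0.73) and the SNAI1_11 gain in P10 (0.92) were not called. The same held for SNAI1_9 without replicate 1 of the population (0.86, 0.86 and 1.01) and in T80 without its replicate 2 (1.15), and for SNAI1_11 without P10 replicate 2 (0.87).

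The other gains at SNAI1 depended more on the settings. SNAI1_5 (chr20:49988991-49990981) had 29.9 and 30.8 CPM in T160, 35.1 and 46.3 CPM in T320, 18.1 and 14.7 CPM in P320 and 18.2 and 17.1 CPM in C. The T320 and C libraries did not overlap, with a change of 1.21 ± 0.18, edgeR adjusted p = 3.6e-05, that was 0.99 when T320 replicate 2 was left out and 0.71 with the window offset, neither of them called. SNAI1_8 had 14.0 and 11.7 CPM in T320, 16.0 and 14.9 CPM in P10, 3.95 and 4.61 CPM in P320 and 7.80 and 4.05 CPM in C. Its gain in T320 (1.15 ± 0.46) stood at an edgeR adjusted p that rounds to 0.05 and was lost in 5 alternatives, 0.72 without C replicate 2 and 0.73 with the window offset among them, while P10 gave 1.41 ± 0.45, edgeR adjusted p = 0.022. SNAI1_6 was lost in P320, with 2.82 and 2.42 CPM in P320 and 8.04 and 6.88 CPM in C (-1.5 ± 0.44, edgeR adjusted p = 0.024), and the call was not kept when any 1 of these 4 libraries was left out, at values from -1.62 to -1.36. In T320 against P320, 8 of the 12 SNAI1 peaks were gained, SNAI1_6 and SNAI1_7 with the 6 above, where the median of the 427 flanking peaks was 0.63. With the window offset 5 of these 8 were not called: SNAI1_5 (0.81), SNAI1_6 (0.97), SNAI1_7 (0.52), SNAI1_8 (0.95) and SNAI1_12 (0.71). SNAI1_6 and SNAI1_7 also lost the call without T320 replicate 1 (0.99 and 0.96), SNAI1_7 and SNAI1_8 without P320 replicate 1 (0.92 and 1.41) and SNAI1_6 without P320 replicate 2 (1.46). SNAI1_1, SNAI1_2 and SNAI1_3, below the gene, and SNAI1_4 were called in none of the 12 comparisons. The SNAI1_8 gain in P10 was not called without C replicate 2 (0.99), P10 replicate 1 (1.36) or P10 replicate 2 (1.46).

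A rising slope on dose was called at 4 of the SNAI1 peaks, and only with T320 included. In the 7 adapted populations from T5 to T320, with counts summed over replicates, a slope on log2 dose was called at an adjusted p under 0.05 and a size of at least 0.25 log2 units per doubling. Of the 48 peaks, 5 rose and 0 fell, against 3.37% and 2.35% of all peaks, and 12 rose and 6 fell at an unadjusted p under 0.05 in edgeR; the trend was not fitted with DESeq2. SNAI1_9 had mean levels of 2.56, 2.52, 3.35, 6.0, 5.59, 6.28 and 12.7 CPM from T5 to T320 and a slope of 0.38 ± 0.06, edgeR adjusted p = 0.0056. The slopes of SNAI1_8, SNAI1_10 and SNAI1_12 were 0.26, 0.25 and 0.34, and the other rising peak was TWIST1_1 (0.40). None of the 5 was called without T320, where the slopes were 0.21, 0.31, 0.18, 0.29 and 0.26 for SNAI1_8, SNAI1_9, SNAI1_10, SNAI1_12 and TWIST1_1. Of 5 alternatives, the call was kept in 2 for SNAI1_8 and SNAI1_10, in 3 for TWIST1_1 and in 4 for SNAI1_9 and SNAI1_12.

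**Figure D3:**
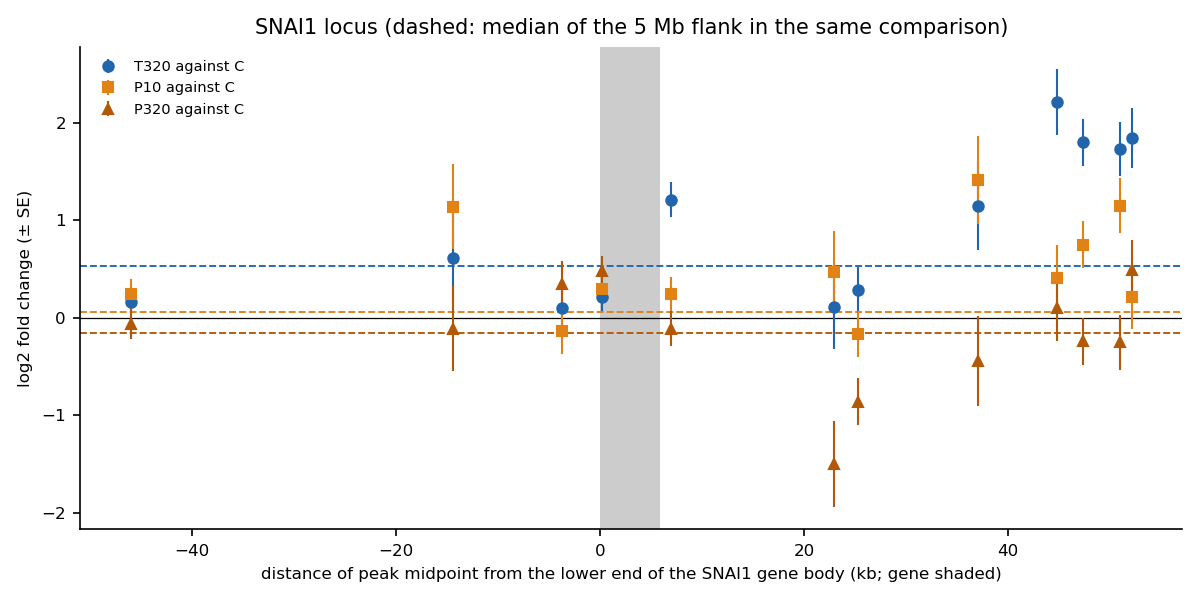
Log2 fold change against C (vertical axis, ± SE) of the 12 SNAI1 peaks by the distance of their midpoint from the lower end of the gene body in kb, for T320, P10 and P320; the gene is shaded and dashed lines give the median of the flanking peaks in the same comparison. T320 stands at 1.73 to 2.21 for the 4 peaks farthest above the gene.

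**Figure D4:**
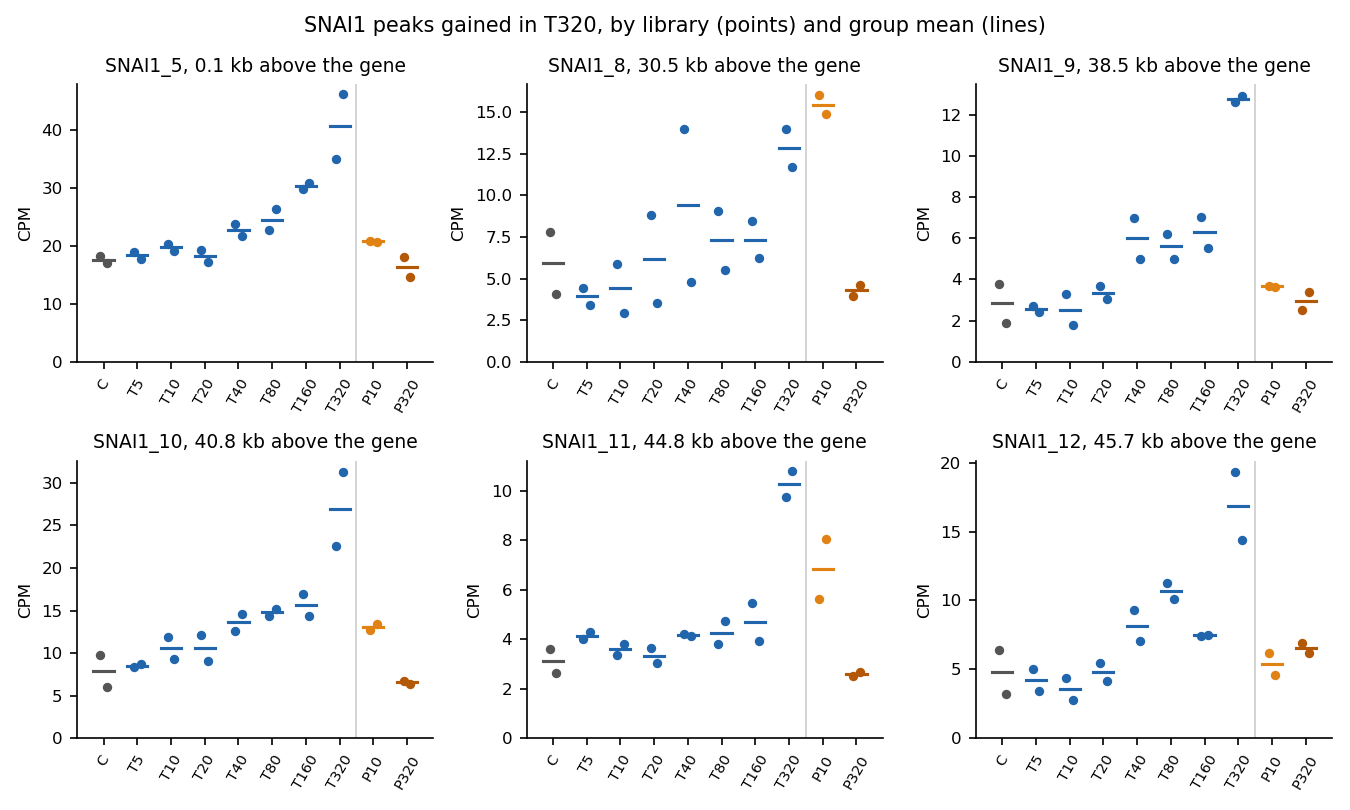
CPM of the 6 SNAI1 peaks gained in T320, in each of the 20 libraries (points) with group means (lines). T320 has the highest mean at 5 of the 6, and P10 at SNAI1_8.

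At ZEB1, the peak inside the gene was called while the start peak was not. ZEB1_2 (chr10:31425961-31427796) had 7.71 and 6.74 CPM in C and 9.91 and 18.7 CPM in T40. It had 13.9 and 16.8 CPM in T80, 14.1 and 14.6 CPM in T160 and 12.6 and 15.8 CPM in T320, and 6.35 and 4.98 CPM in P320. All libraries of these adapted populations were above those of C and P320. It was gained in T40 (1.01 ± 0.28, edgeR adjusted p = 0.0085) and T80 (1.1 ± 0.28, edgeR adjusted p = 0.0048), stood at 0.99 ± 0.28, edgeR adjusted p = 0.0081, in T320, just under the minimum, and was higher in T320 than in P320 by 1.33 ± 0.28, edgeR adjusted p = 6.3e-04. With the window offset these calls were lost, at 0.64 in T40, 0.69 in T80 and 0.77 in T320 against P320. With the replicate block the T40 gain was 1.00 and not called. The gains were also not called without C replicate 2 (0.91 in T40 and 1.00 in T80) or replicate 2 of the population (0.46 and 0.93).

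ZEB2, the other ZEB gene, had changes in both directions, 4 gained and 2 lost of 15 peaks in T320. Inside the gene, ZEB2_7 (chr2:144452427-144453347) was gained in 5 of the 7 adapted populations, T20 to T320, more than any other of the 48 peaks. It had 4.79 and 4.75 CPM in T320, 1.66 and 1.23 CPM in P320 and 2.13 and 1.70 CPM in C. Both T320 libraries were above those of C and P320, and the change in T320 was 1.33 ± 0.31, edgeR adjusted p = 0.002, against C and 1.72 ± 0.30, edgeR adjusted p = 1.4e-04, against P320. At P10 the levels were 1.32 and 0.828 CPM in P10, below both C libraries. The ZEB2_7 gain was not called without C replicate 2 in T20 (0.92) and T40 (1.01) or without T20 replicate 2 in T20 (1.01).

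Below ZEB2, ZEB2_3 and ZEB2_5 were gained in T320 and in P10. ZEB2_5 (chr2:144364687-144365660) had 8.39 and 8.11 CPM in T320, 7.23 and 7.15 CPM in P10, 1.41 and 1.11 CPM in P320 and 2.46 and 1.46 CPM in C. T320 and P10 lay above both C libraries, by 2.10 ± 0.38, edgeR adjusted p = 2.5e-04, in T320 and 1.91 ± 0.38, edgeR adjusted p = 0.0011, in P10, and P320 below them. T320 exceeded P320 there by 2.70 ± 0.38, edgeR adjusted p = 1.5e-05, and T10 was lower than P10 by -1.51 ± 0.37, edgeR adjusted p = 0.0027. ZEB2_3 (chr2:144357680-144358615) had 4.02 and 3.72 CPM in C, 9.18 and 8.0 CPM in T5 and 10.7 and 9.54 CPM in T320, and 8.51 and 9.50 CPM in P10 and 3.60 and 3.98 CPM in P320. It was gained in T5 (1.15 ± 0.22, edgeR adjusted p = 0.0026) and T320 (1.39 ± 0.22, edgeR adjusted p = 7.5e-05), with mean levels of 4.31, 3.94 and 3.98 CPM in T20, T40 and T80, and in P10 (1.22 ± 0.22, edgeR adjusted p = 5.1e-04). ZEB2_2, next to it, was gained in T5 (1.13 ± 0.21, edgeR adjusted p = 0.0021) and called in no other comparison. For ZEB2_1, ZEB2_2 and ZEB2_3 the nearest coding gene is QTMAN. The ZEB2_3 gain in T5 was not called with the window offset (1.00). The ZEB2_2 gain in T5 was not called without C replicate 1 (0.97) or with the window offset (0.97), and the ZEB2_5 difference of T10 and P10 not without T10 replicate 2 (-1.23).

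Above ZEB2, peaks that overlap the RefSeq gene LINC01412 went opposite ways. ZEB2_15 (chr2:144552873-144554177) had 9.56 and 12.3 CPM in T160, 11.6 and 19.4 CPM in T320, 2.47 and 3.08 CPM in P320 and 5.83 and 4.67 CPM in C. T320 exceeded both other groups, C by 1.59 ± 0.32, edgeR adjusted p = 5.6e-04, and P320 by 2.49 ± 0.32, edgeR adjusted p = 6.2e-06. ZEB2_13 had 2.74 and 4.93 CPM in T320, 3.26 and 3.71 CPM in P10 and 8.86 and 7.64 CPM in C. It was below C without overlap in both, and was lost in T20, T40, T80, T320 and P10. Its loss in T320 (-1.07 ± 0.33, edgeR adjusted p = 0.015) was not called without T320 replicate 1 (-0.74) or C replicate 1 (-0.96). ZEB2_14 was gained in T160 (1.02 ± 0.23, edgeR adjusted p = 0.0026) and lost in P10 (-1.20 ± 0.24, edgeR adjusted p = 0.0013), and ZEB2_12 was gained in T80 and T160 (1.20 and 1.11). In T160, the ZEB2_14 gain was not called without C replicate 1 (0.97) or T160 replicate 2 (0.86), and the ZEB2_12 gain not without C replicate 2 (1.03) or T160 replicate 1 (0.85). In T80, ZEB2_12 was not called without C replicate 2 (1.12) or T80 replicate 1 (0.90). The ZEB2_13 losses were not called without replicate 2 of T20 (-1.23) or T80 (-1.23) or replicate 1 of P10 (-1.15), and the P10 losses of ZEB2_13 and ZEB2_14 not with the window offset (-0.66 and -0.62).

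The peak nearest to the ZEB2 start on the gene side, ZEB2_11 (chr2:144516013-144517856), was high in both 9-day groups. It had 7.19 and 8.78 CPM in T320, 16.0 and 16.2 CPM in P10, 17.1 and 15.5 CPM in P320 and 8.54 and 7.64 CPM in C. The P320 gain was 1.01 ± 0.18, edgeR adjusted p = 0.001, the uncalled P10 change 0.99 ± 0.18, edgeR adjusted p = 6.6e-04, and T320 was lower than P320 by -1.02 ± 0.18, edgeR adjusted p = 1.7e-04. With TMM from gene-end peaks alone the P320 value was 0.52 and the T320 against P320 value -0.57, neither called. The farthest peak below the gene, ZEB2_1, had 0.771 and 1.84 CPM in T320, 0.838 and 0.654 CPM in P10 and 3.04 and 5.99 CPM in C. It was lost in T10, T20, T160, T320 (-1.74 ± 0.44, edgeR adjusted p = 0.0039) and P10 (-2.60 ± 0.46, edgeR adjusted p = 4.6e-04), and without C replicate 2 the T320 loss was -1.15 and not called. The P320 gain of ZEB2_11 was not called without C replicate 2 (0.93) or P320 replicate 1 (0.98), and its difference from T320 not without T320 replicate 1 (-0.89). The ZEB2_1 losses in T10, T20 and T160 were not called without C replicate 2 either (-0.91, -0.70 and -0.98), nor without replicate 2 of the population (-1.72, -1.25 and -1.49) or replicate 1 of T10 (-1.34) or T20 (-1.33).

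At SNAI2, a repressor related to SNAI1, the gains lay at T10 to T40. SNAI2_7 (chr8:48933843-48935089, 12.4 kb above the gene) had 3.28 and 3.21 CPM in C, 6.56 and 7.47 CPM in T10 and 13.6 and 11.5 CPM in T20. It had 10.2 and 7.65 CPM in T40 and 5.05 and 3.5 CPM in T320, and 2.05 and 2.01 CPM in P320. The T10, T20 and T40 libraries were all above those of C, with gains of 1.12 ± 0.26, edgeR adjusted p = 0.0042, in T10, 1.94 ± 0.26, edgeR adjusted p = 2.5e-05, in T20 and 1.45 ± 0.26, edgeR adjusted p = 3.6e-04, in T40. T320 exceeded P320 by 1.05 ± 0.27, edgeR adjusted p = 0.0033, which was 0.69 and not called with the window offset. SNAI2_3, below the gene, had 3.94 and 2.33 CPM in T320 and 8.86 and 6.93 CPM in C. It was lost in T20, T160 and T320 (-1.36 ± 0.41, edgeR adjusted p = 0.013), and its T320 loss was not called without T320 replicate 2 (-0.99) or C replicate 1 (-1.18). The SNAI2_7 difference of T320 and P320 was also not called without T320 replicate 1 (0.78) or P320 replicate 2 (0.98), and the SNAI2_3 losses in T20 and T160 not without C replicate 1 (-1.02 and -0.98) or either replicate of the population (-1.37 and -1.04 in T20, -1.21 and -1.10 in T160), nor in T160 without C replicate 2 (-1.33).

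TWIST1, a regulator of mesoderm and neural crest development, lost TWIST1_2 (chr7:19091543-19092413, 20.6 kb below the gene) in 6 of the 7 adapted populations, all but T5, and in P10. With the replicate block it was called in T5 too (-1.46). It had 2.23 and 0.403 CPM in T320, 0.75 and 1.00 CPM in P10, 2.26 and 2.01 CPM in P320 and 4.51 and 6.74 CPM in C. All of these treated libraries were below those of C. The counts were low, 26 and 9 in T320 and 55 and 143 in C, and 8 and 5 in T40. The log2 change was -2.21 ± 0.62, edgeR adjusted p = 0.0076, in T320, -3.56 ± 0.70, edgeR adjusted p = 7.2e-04, in T40 and -2.68 ± 0.62, edgeR adjusted p = 0.0031, in P10, and an uncalled -1.40 ± 0.57, edgeR adjusted p = 0.092, in P320. The T320 call was lost without C replicate 2 (-1.89) and without T320 replicate 2 (-1.34). The T160 loss was not called without C replicate 2 (-1.78) or T160 replicate 2 (-1.63), and the T10 loss not without T10 replicate 2 (-2.69).

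TWIST1_1 (chr7:19078913-19079508), farther below, was called against C in T320 only. It had 4.71 and 6.27 CPM in T320, 0.812 and 1.08 CPM in P320 and 1.31 and 1.70 CPM in C, from read counts of 55 and 140 in T320 and 16 and 36 in C. Both T320 libraries were above all of these, with changes of 1.85 ± 0.55, edgeR adjusted p = 0.01, against C and 2.54 ± 0.55, edgeR adjusted p = 9.2e-04, against P320, and the gain against C did not keep its call when C replicate 1 (1.70) or T320 replicate 2 (1.63) was left out. At TWIST2, whose product is closely related to TWIST1, TWIST2_7 (27.3 kb above the gene) had 4.45 and 2.33 CPM in T320, 7.45 and 7.62 CPM in P320 and 7.47 and 4.15 CPM in C. It was lost in T10, T20 and T160 (-1.15, -1.16 and -1.21) and was lower in T320 than in P320 by -1.19 ± 0.39, edgeR adjusted p = 0.018, a call lost in 5 alternatives, -0.71 with TMM from gene-end peaks alone and -0.76 without T320 replicate 2 among them. TWIST2_6 inside the gene was gained in T80 (1.17 ± 0.39, edgeR adjusted p = 0.025), and TWIST2_2, TWIST2_3 and TWIST2_7 were lower in T10 than in P10. For TWIST2_2 this call was lost without T10 replicate 2 (-0.73) or P10 replicate 2 (-1.13), with the window offset (-0.99) and with TMM from gene-end peaks alone (-1.28). For TWIST2_3 it was lost without T10 replicate 2 (-1.73), P10 replicate 1 (-2.22) or P10 replicate 2 (-2.20). Without C replicate 1 the TWIST2_7 losses in T10, T20 and T160 were -0.68, -0.69 and -0.75, and without replicate 1 of the population -1.06, -0.84 and -1.45, none of them called, nor were they in T10 and T160 without replicate 2 (-1.25 and -0.99). The TWIST2_6 gain was not called without C replicate 2 (0.93) or either T80 library (1.12 and 1.20).

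Of the 48 peaks, 17 were gained and 5 lost in at least 1 adapted population against C, and no peak was gained in one and lost in another. In P10 or P320, 12 were called against C. Over the 12 comparisons, the trend included, 33 were called at least once and 15 never: ZEB1_1, ZEB2_6, ZEB2_9, ZEB2_10, SNAI1_1 to SNAI1_4, SNAI2_1, SNAI2_2, SNAI2_4, SNAI2_5, TWIST1_3, TWIST2_1 and TWIST2_5. How often all 105048 peaks were called in this way over several comparisons was not computed, so these counts cannot be set against a background. In T320 against C, 10 of the 11 gains and all 4 losses lay outside the gene bodies, as did 33 of the 48 peaks.

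The summed counts of all peaks within 50 kb gave 1 value per gene, tested in the same way over 18971 protein-coding genes and called at an adjusted p under 0.05 with no minimum fold. In T320 the SNAI1, ZEB1 and ZEB2 sums were higher than in C, where 26.2% of all genes were up and 26% down and the median log2 change was 0.0741. The SNAI1 sum averaged 229 ± 8.45 CPM in T320, 139 ± 3.25 CPM in P320 and 137 ± 8.43 CPM in C (SD, n = 2 each), a change of 0.74 ± 0.09, edgeR adjusted p = 1.0e-05, against C and 0.72 ± 0.09, edgeR adjusted p = 7.8e-06, against P320. The ZEB1 sum rose by 0.65 ± 0.20, edgeR adjusted p = 0.014, and the ZEB2 sum by 0.40 ± 0.12, edgeR adjusted p = 0.011, a call lost without T320 replicate 2 (0.22). The sums of SNAI2, TWIST1, TWIST2 and PRRX1 were not called in T320, at -0.16, -0.23, -0.11 and -0.49. The ZEB1 call was lost without C replicate 1 (0.53) or T320 replicate 2 (0.49).

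The wider surroundings of SNAI1 and ZEB1 moved with these sums. In T320 against C the median log2 change of the flanking peaks, those over 50 kb from the gene within a region of 5 Mb, was 0.53 for 427 peaks around SNAI1, 0.48 for 206 around ZEB1 and 0.06 for 132 around ZEB2. A window offset took each library's median shift per window of 5 Mb out of the counts. With it the T320 changes against C were 0.23 for SNAI1 and 0.13 for ZEB1, neither called, and 0.43 for ZEB2. DNA copy number was not measured, and its part in these values was not tested. For the single peaks SNAI1_9, SNAI1_10, SNAI1_11 and SNAI1_12 the window offset left calls of 1.80, 1.39, 1.31 and 1.43.

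**Figure D5:**
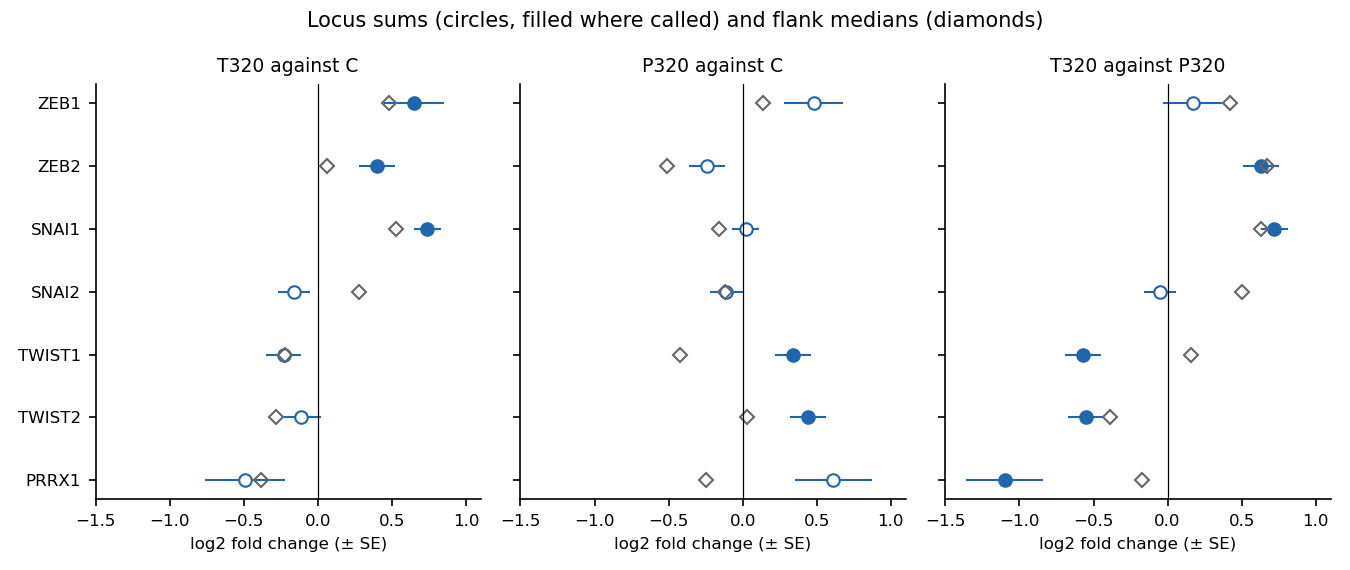
Log2 fold changes (± SE) of the locus sums of the 7 genes (circles, filled where called) with the median of the flanking peaks (diamonds) in T320 against C, P320 against C and T320 against P320. In T320 against C the sums of ZEB1, ZEB2 and SNAI1 are called, and the flanks of ZEB1 and SNAI1 stand at 0.48 and 0.53.

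In P320 the sums of TWIST1 and TWIST2 were higher than in C, by 0.34 ± 0.12, edgeR adjusted p = 0.046, and 0.44 ± 0.12, edgeR adjusted p = 0.014, where 25.8% of all genes were up, 3.17% down and the median change was 0.211. With TMM from gene-end peaks alone they were -0.14 and -0.06, neither called, so their direction turns with the scaling. T320 was lower than P320 for TWIST1 (-0.57 ± 0.12, edgeR adjusted p = 9.5e-04), TWIST2 (-0.55 ± 0.12, edgeR adjusted p = 0.0014) and PRRX1 (-1.10 ± 0.26, edgeR adjusted p = 0.0024) and higher for ZEB2 (0.63 ± 0.12, edgeR adjusted p = 3.0e-04) and SNAI1, where 16% of all genes were up and 37.9% down. With gene-end scaling TWIST1, TWIST2 and PRRX1 were at -0.11, -0.09 and -0.64, and with the window offset SNAI1 and ZEB2 were at 0.21 and 0.14, none of the 5 called. In P320 against C, the TWIST1 sum was not called without C replicate 1 (0.20), P320 replicate 1 (0.29) or P320 replicate 2 (0.39), and the TWIST2 sum not without C replicate 2 (0.27) or P320 replicate 2 (0.35). T10 was lower than P10 for SNAI1 (-0.25), TWIST1 (-0.89), TWIST2 (-0.59) and PRRX1 (-0.79) and higher for SNAI2 (0.33). There, 21.2% of all genes were up and 24.4% down. All of these calls but that of TWIST1 were lost in at least 1 of 11 alternatives.

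Across the dose series the SNAI2 sum averaged 81.1 ± 9.63 CPM in C and 114 ± 8.56 CPM in T20. It averaged 114 ± 2.41 CPM in T40 and 72.4 ± 6.95 CPM in T320 (SD, n = 2 each). It was called in T20 (0.49 ± 0.11, edgeR adjusted p = 0.0021) and T40 (0.50 ± 0.11, edgeR adjusted p = 0.0018), where 25.6% and 30.9% of all genes were up. The TWIST1 sum was lower than in C in T5, T10, T40, T80 and T160, most in T10, with 22.9 ± 2.34 CPM in T10 and 38.0 ± 5.41 CPM in C (-0.73 ± 0.12, edgeR adjusted p = 3.3e-04), where 10.8%, 15.5%, 21.6%, 21% and 18.3% of all genes were down in T5, T10, T40, T80 and T160. With the window offset the SNAI2 sum was 0.20 in T20 and 0.14 in T40, neither called, and the TWIST1 sum was -0.28 in T5 and -0.05 in T40, neither called. The TWIST1 call was lost without C replicate 2 in T40 (-0.24) and T160 (-0.32) and without T40 replicate 2 in T40 (-0.37). The SNAI1 sum was called up in T20 (0.35), T40 (0.46), T80 (0.42), T160 (0.33) and P10 (0.38), and ZEB1 in T40 (0.59), T80 (0.58) and T160 (0.64). SNAI1_1, the peak of highest mean level in the SNAI1 sum, overlaps the neighbouring gene RNF114. That peak had 59.4 and 58.4 CPM in T20, 54.9 and 55.7 CPM in T40 and 40.8 and 39.0 CPM in C. A sum without SNAI1_1 was not computed. ZEB2 was up in T5 (0.41) and T160 (0.34), TWIST2 up in P10 (0.62) and PRRX1 down in T160 (-0.93). In T5, T80, T160 and P10, 4.95%, 30%, 24.7% and 19% of all genes were up. Each of these calls was lost in at least 1 of 11 alternatives. With the window offset SNAI1 was -0.10, -0.03 and -0.04 in T20, T40 and T80, and PRRX1 was 0.01 in T160.

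In order of mean level, P320 was highest and T5 lowest at the start peaks of ZEB1, SNAI1 and TWIST1. At ZEB1_1 P320 did not overlap T320, the next, while from T320 over T160, T20, T40 and P10 to T80 each group overlapped the next. At TWIST1_4 both P320 libraries lay above both of P10, and these above those of T20, and from T20 down to T5 each group overlapped the next. At SNAI2_5 no neighbours were separated, from T40 as the highest to P10 as the lowest. Among 12164 to 13220 gene-end peaks on other chromosomes, those whose group means followed the start peaks most closely were at GPT2 (r = 0.975) and THOC7 (0.969) for ZEB1, LRRC20 (0.983) and SNRPA1 (0.976) for SNAI1, CDK5RAP1 (0.954) and SLC26A5 (0.948) for SNAI2, DRD1 (0.989) and FPGS (0.987) for TWIST1, GAL (0.972) and F12 (0.969) for TWIST2, and ST6GAL2 (0.960) and GRIN2A (0.957) for PRRX1. These are Pearson correlations of mean log2 CPM over 10 groups, which share libraries and scaling between peaks, and they describe likeness alone.

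Genes that act with or under these factors were read at 1 peak each, the gene-start or gene-end peak of highest mean count; over 13621 genes, 5.22% were gained and 5.23% lost in T320 against C. Of 13 genes activated in EMT, 11 had such a peak and 4 were gained in T320, VIM (vimentin), FN1 (fibronectin) and COL5A1 (a collagen chain) among them, and the others were not called. COL5A1 had 33.5 ± 4.46 CPM in T320 and 15.4 ± 0.939 CPM in C (1.12 ± 0.17, edgeR adjusted p = 5.6e-05). CDH2, the N-cadherin gene, stood at 0.35 ± 0.25, edgeR adjusted p = 0.27. The median over the 11 was 0.48, against 0.115 over all 13621 genes.

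Of 18 genes and miRNA loci that guard the epithelial state, 12 had a peak, 11 peaks in all, and 3 were lost in T320, the others not being called: ELF3 and GRHL3, epithelial transcription factors, and ESRP1, an epithelial splicing regulator. ELF3 had 14.8 ± 1.66 CPM in T320 and 35.4 ± 3.36 CPM in C (-1.27 ± 0.18, edgeR adjusted p = 3.2e-05), and GRHL3 2.34 ± 0.203 CPM in T320 and 6.45 ± 0.0743 CPM in C (-1.47 ± 0.32, edgeR adjusted p = 0.0012). Of 20 genes that ZEB or SNAI factors repress, 17 had a peak and 2 were lost in T320, the others not being called: CLDN3, a tight-junction claudin (-1.49 ± 0.26, edgeR adjusted p = 2.0e-04), and the mucin gene MUC1 (-1.19 ± 0.17, edgeR adjusted p = 2.4e-05). CDH1 had 2.83 ± 0.837 CPM in T320 and 3.44 ± 0.00358 CPM in C (-0.31 ± 0.31, edgeR adjusted p = 0.45), so no difference was detectable at this level. Of 5 markers of the serous ovarian lineage, SOX17, WT1 and EMX2 were lost in T320, and the summed list lay between 78.2 and 89.7 CPM in T320, 221 and 224 CPM in P320 and 126 and 195 CPM in C. MIR200C and MIR141, which encode miRNAs that target ZEB transcripts, share 1 peak, with 8.68 ± 0.556 CPM in T320 and 5.31 ± 0.0381 CPM in C (0.71 ± 0.20, edgeR adjusted p = 0.0087), and 8.88 ± 1.37 CPM in P320 (0.74 ± 0.20, edgeR adjusted p = 0.013), under the minimum of 1 in both. Their mature 3p sequences from RefSeq (GRCh38.p14) are shown with the seed, bases 2 to 8, in capitals.
hsa-miR-200c-3p: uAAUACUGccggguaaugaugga
hsa-miR-141-3p: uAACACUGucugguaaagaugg

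Of 20 other transcription factors linked to EMT, FOXC2 (1.26 ± 0.21, edgeR adjusted p = 9.8e-05) and TBX3 (1.64 ± 0.31, edgeR adjusted p = 4.1e-04) were gained in T320 and the others were not called. Of 21 inducers, among them ligands, receptors and signal transducers, 20 had a peak and 3 were gained, the others not being called: SMAD3 (1.5 ± 0.22, edgeR adjusted p = 4.1e-05) and SMAD7 (1.42 ± 0.31, edgeR adjusted p = 0.0011), which transmit and restrain TGF-beta signals, and PDGFRB. In P320, 15.1% of the 13621 genes were gained and 0.609% lost, and the median change was 0.422. There, 4 of the 20 other factors were gained, with FOXC1 (1.61 ± 0.17, edgeR adjusted p = 1.9e-05) and FOXC2 (1.21 ± 0.20, edgeR adjusted p = 5.4e-04) first, and 6 of the 20 inducers, with TGFBR1 (1.74 ± 0.23, edgeR adjusted p = 1.0e-04) and NOTCH1 (1.17 ± 0.19, edgeR adjusted p = 3.6e-04) first. Of the guardians, GRHL1 (1.83 ± 0.31, edgeR adjusted p = 5.6e-04) and KLF4 (1.02 ± 0.17, edgeR adjusted p = 4.3e-04) were gained in P320, and of the repressed genes LLGL2 (1.68 ± 0.19, edgeR adjusted p = 3.3e-05), PATJ (1.01 ± 0.23, edgeR adjusted p = 0.0054) and MARVELD2. With TMM from gene-end peaks alone, the log2 changes of all peaks shifted by -0.48 in P320 against C and by -0.03 in T320 against C. No alternative scaling or left-out library was run for the listed genes, so whether their calls hold was not tested.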

How the data were processed

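ATAC-seq counts were analysed for 20 Kuramochi libraries in 10 groups of 2. Each value deposited is a count for 1 consensus peak and library, a read count per the labels; the values are whole numbers whose totals differ between libraries, so they were taken as not normalized. The submitters' processing notes name the build GRCh38 and, without roles, the tools DESeq2, deepTools 3.1 and 3.5.1, HOMER 4.1, MACS2, SAMtools, Picard, Bowtie2 and Trim Galore. Whether duplicates were removed, reads were shifted for the transposase, peaks were called on pooled libraries or starts are counted from 0 or 1 is not given in the sources used here.

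All 105048 peaks were fitted with edgeR 4.0.16 (R 4.3.3; TMM scaling, robust quasi-likelihood, filterByExpr, which kept all peaks), with groups as terms and no replicate block, and p-values were adjusted by Benjamini-Hochberg over all peaks. Same-numbered libraries deviated together in all 28 pairs of groups among C and the T populations (correlation 0.17 to 0.59) and not in the 17 pairs with P10 or P320 (-0.10 to 0.00). The labels do not say that a number marks a shared batch, so this pairing comes from the data alone, and block values stand beside the results of C and T populations that they change. The fit of T320 against C was tried on simulated counts with 1 constant spread for all peaks and no fold minimum. That setting differs from the data and from the calls used here, and its outcome is not reported. DESeq2 1.42.0, other scalings, filters and distances, the replicate block, the compared groups alone and each library left out were alternatives. They were run for the peaks near the EMT factor genes and for the locus sums, not for the gene lists and markers. Library totals lay between 9627970 and 29699950 counts.

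The members and gene lists were chosen with earlier results of these data known. Peaks were named by a rule: each gene's start peak, and the called peak with the smallest p in each direction in the dose trend and in the comparisons of T320 with C, of P320 with C and of T320 with P320. From the gene lists, the 2 called members with the smallest adjusted p were named with values. Other peaks and genes named, CDH1, CDH2 and MIR200C among them, were chosen after their values were seen. Results for some listed genes are not reported here.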

Additional observations from a re-analysis of the deposited data

Results flagged for a closer look

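Only the start peaks and the peaks named for their smallest p were searched for opposite changes of T320 and P320 against C. For 10 of them the signs were opposite and the direct edgeR test of T320 against P320 called the difference. T320 was higher at ZEB1_2 (1.33), ZEB2_3 (1.41), ZEB2_15 (2.49), SNAI1_6 (1.62), SNAI1_10 (2.05), SNAI2_7 (1.05) and TWIST1_1 (2.54), all as log2 fold changes. T320 was lower at ZEB2_11 (-1.02), TWIST2_7 (-1.19) and PRRX1_1 (-1.10). Peaks outside this search met the same rule, ZEB2_5 (2.70), ZEB2_7 (1.72) and SNAI1_11 (1.99) among them, so 10 is not a full count. Most of the 10 were named for the smallest p in this same direct test, and no share over all peaks is given. The comparisons of T320 and of P320 with C share the C libraries, so their opposite signs are not independent of each other. The calls at ZEB2_15, SNAI1_10 and TWIST1_1 held in each of the 11 alternatives run for them. With the window offset ZEB1_2 (0.77), ZEB2_3 (0.93), SNAI1_6 (0.97), SNAI2_7 (0.69), TWIST2_7 (-0.89) and PRRX1_1 (-0.88) were no longer called. With TMM from gene-end peaks alone the same held for ZEB2_11 (-0.57), TWIST2_7 (-0.71) and PRRX1_1 (-0.64). Single libraries also decided calls: without T320 replicate 1 ZEB2_11 (-0.89), SNAI1_6 (0.99) and SNAI2_7 (0.78) were not called, nor were TWIST2_7 (-0.76) and PRRX1_1 (-0.95) without T320 replicate 2. The same held for SNAI1_6 (1.46), SNAI2_7 (0.98) and TWIST2_7 (-1.23) without P320 replicate 2, and for TWIST2_7 (-1.26) without P320 replicate 1. The share of counts in gene-end peaks, 29.2% and 31.5% in T320 against 38.2% and 37.5% in P320, differed between the groups, and its part in these differences was not tested.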

How the results depend on the processing

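Counts of gained and lost peaks moved with the distance rule, the scaling and the leaving out of libraries; 244 of 320 recomputed counts stayed within 1.5 times the reported one, and the cause of the others was not tested. With TMM from gene-end peaks alone, gains numbered 0 in T10 against C (reported 1), 1 in T20 against C (reported 2), 2 in T40 against C (reported 4), 2 in T80 against C (reported 6), 1 in T160 against C (reported 6), 3 in P10 against C (reported 6), 0 in P320 against C (reported 1), and losses numbered 4 in T80 against C (reported 2), 8 in P320 against C (reported 1), 0 in T320 against P320 (reported 3). With the window offset, gains numbered 0 in T5 against C (reported 2), 3 in T80 against C (reported 6), 3 in P320 against C (reported 1), 8 in T320 against P320 (reported 16), and losses numbered 2 in P10 against C (reported 4), and called locus sums up numbered 13 (reported 21) and locus sums down numbered 8 (reported 13). With the replicate number as a block, losses numbered 2 in T5 against C (reported 0), 5 in T10 against C (reported 3), 6 in T80 against C (reported 2), 2 in P320 against C (reported 1). With the compared groups alone in the fit, gains numbered 2 in P320 against C (reported 1), and losses numbered 2 in P320 against C (reported 1). With peaks within 10 kb only, gains numbered 0 in T5 against C (reported 2), 0 in T10 against C (reported 1), 1 in T20 against C (reported 2), 2 in T40 against C (reported 4), 2 in T160 against C (reported 6), 2 in T320 against C (reported 11), 1 in P10 against C (reported 6), 3 in T320 against P320 (reported 16), 2 in T10 against P10 (reported 4), 0 in the trend (reported 5), and losses numbered 0 in T10 against C (reported 3), 0 in T20 against C (reported 5), 0 in T40 against C (reported 2), 0 in T80 against C (reported 2), 0 in T160 against C (reported 4), 0 in T320 against C (reported 4), 0 in P10 against C (reported 4), 0 in P320 against C (reported 1), 3 in T10 against P10 (reported 9). With only peaks whose nearest gene is 1 of the 7, gains numbered 0 in T5 against C (reported 2). With replicate 1 libraries alone, gains numbered 2 in the trend (reported 5). Without T320, gains numbered 0 in the trend (reported 5). Counting only calls kept in every fit that left out 1 library, called locus sums up numbered 8 (reported 21) and locus sums down numbered 8 (reported 13). Leaving out each library of the 2 groups in turn gave gains of 2 to 2 in T5 against C, 1 to 1 in T10 against C, 1 to 2 in T20 against C, 2 to 6 in T40 against C, 1 to 7 in T80 against C, 2 to 7 in T160 against C, 8 to 12 in T320 against C, 3 to 8 in P10 against C, 0 to 2 in P320 against C, 13 to 15 in T320 against P320, 2 to 5 in T10 against P10; losses of 0 to 0 in T5 against C, 0 to 2 in T10 against C, 2 to 4 in T20 against C, 2 to 3 in T40 against C, 1 to 3 in T80 against C, 0 to 2 in T160 against C, 2 to 5 in T320 against C, 3 to 4 in P10 against C, 0 to 0 in P320 against C, 2 to 5 in T320 against P320, 6 to 11 in T10 against P10.

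Of 6991 recomputed single values, 6589 kept their side of the threshold, among them 440 uncalled values that changed sign and stayed uncalled. Another 258 kept the direction and were no longer called, and 133 became called. The remaining 11 were locus sums, called before or after, that changed sign. With the window offset they were -0.10 for SNAI1 T20 against C, 0.40 for TWIST2 T20 against C, -0.03 for SNAI1 T40 against C, -0.04 for SNAI1 T80 against C, 0.01 for PRRX1 T160 against C, 0.52 for ZEB2 P10 against C and -0.35 for ZEB2 T10 against P10. With gene-end scaling they were -0.48 for SNAI1 P320 against C, -0.14 for TWIST1 P320 against C, -0.06 for TWIST2 P320 against C and 0.40 for SNAI2 T320 against P320. The replicate block, in the fit of all 20 libraries, changed calls of single peaks in T5, T10, T40 and T80 against C, given with the results. Of the locus sums against C in the adapted populations it changed the call of ZEB1 in T20 (0.46, called with the block). Without 1 library, the group left with a single library is assumed to vary like the others. The 2 libraries per group, and a smallest total of 9627970 counts, limit the weakest peaks most, TWIST1_2 among them, where 1 library held 5 counts.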
